A study of Caenorhabditis elegans with 18 samples.

Results

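The comparison described here asked which transcripts changed when the F-box gene *fbxl-5* was mutated in *C. elegans* that already carried a mutation in *rict-1*. It set 3 mRNA-Seq libraries of *rict-1(mg360); fbxl-5(rhd43)* animals (strain DLS491) against 3 libraries of *rict-1(mg360)* animals (strain DLS490), which makes 6 of the 18 libraries of the series. Both groups carried *rict-1(mg360)*, a missense allele that may leave some function, and differed by *fbxl-5(rhd43)*, a nonsense allele. All animals were whole hermaphrodites on day 1 of adulthood (adult day 1), grown for about 72 hours at 20 °C on *E. coli* OP50 at 5000 animals per plate. Each genotype was a single strain, and the 3 libraries of each were described as independent biological replicates. The *fbxl-5(rhd43)* and wild-type (N2) libraries, and those of *lin-29(n333); fbxl-5(rhd43)* and *lin-29(n333)*, served to compare the same mutation in other backgrounds. They also entered the count filter and the estimate of the spread behind each call, since the model was fitted to all 18 libraries. Of 24998 genes in the table, the 13472 whose normalized counts averaged 10 or more across the 18 libraries were tested, where a normalized count is a read count divided by the library's size factor.

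FBXL-5 has an F-box, the domain by which such proteins join SKP1-like and cullin proteins in SCF ubiquitin ligases, which mark other proteins for degradation or altered activity. RICT-1 is the *C. elegans* Rictor, the subunit that defines mTOR complex 2 (mTORC2), a kinase complex that acts in the intestine through the kinase SGK-1 on fat storage, growth and the production of yolk. The intestine of the adult hermaphrodite makes the yolk lipoproteins (vitellogenins, *vit-1* to *vit-6*) that are taken up by oocytes, and it is also a main site of defence against ingested bacteria.

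Depth was even among the 6 libraries. Between 24989867 and 27235360 reads were counted on genes in the *rict-1; fbxl-5* libraries, against 26234951 to 27517796 in the *rict-1* libraries. Reads on ribosomal RNA genes made up 4.49% of *rict-1* replicate 3 and at most 0.851% of any other of the 6. Replicates of a group differed by far more than counting noise (chi-square per degree of freedom between 8.73 and 90.7), so none was a duplicate of another. The *fbxl-5* transcript itself was at 214, 208 and 226 normalized counts in *rict-1; fbxl-5* libraries, against 178, 193 and 173 in *rict-1* libraries (log2 fold change 0.25 ± 0.25 (SE), adjusted p = 0.909). Its level therefore does not show the mutation, which changes a codon and need not remove the transcript. The *rict-1* transcript was at 2941, 2565 and 2678 normalized counts in the double mutant, against 3025, 2119.7 and 2786 in *rict-1* (log2 fold change 0.06, adjusted p = 0.967).

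Far more genes fell than rose when *fbxl-5* was mutated in *rict-1* animals, and the genes that fell furthest included several infection response genes that were high in *rict-1* libraries. At a false discovery rate (FDR) of 0.01, 187 genes were called, which is 1.39% of those tested. Of these, 143 fell (1.06% of genes tested) and 44 rose (0.327%). The median size of the change among called genes was 1.25 on the log2 scale, and 86 of the genes that fell and 33 of those that rose changed at least 2-fold. The median signed log2 fold change over all genes tested was 0.01. In all 187 the 3 *rict-1; fbxl-5* libraries lay on the same side of the 3 *rict-1* libraries. Over all genes tested the 3 double mutant libraries lay wholly above in 8.75% and wholly below in 13.2%. The genes that fell were the more abundant, with a median of 446 normalized counts over the 6 libraries, against 126.5 for those that rose and 309.8 for all genes tested. As whole animals were sequenced, fewer cells of a type and less RNA per cell cannot be told apart in any of these changes.

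The count depended on whether libraries with the same replicate number were treated as a pair. Same-numbered libraries of the 2 genotypes deviated together from their group means (correlations across genes of 0.65, 0.39 and 0.24 for replicates 1, 2 and 3), although replicate 3 of *rict-1; fbxl-5* correlated slightly better, at 0.28, with replicate 2 of *rict-1*. In the fit of 18 libraries the replicate number was then entered as a block for the *rict-1; fbxl-5* and *rict-1* libraries only. That fit called 169 genes (1.25% of genes tested), of which 50 rose, and 154 of them were among the 187. When limma was fitted to the 6 libraries alone, 427 genes were called without the block (3.17%) and 1355 with it (10.1%). The 1355 comprised 508 that rose and 847 that fell and included all of the 427 and all but 2 of the 187. Their differences had the same sign in each of the 3 pairs, which such a fit selects for and which held for 43.5% of all genes tested. The 928 that only the block added to the 427 changed less, with a median size of 0.67 on the log2 scale against 1.09 for the 427. A core of 133 genes was called in all 4 fits. Leaving out 1 of the 6 libraries at a time from the fit of 18 without the block gave between 87 calls (without *rict-1; fbxl-5* replicate 2) and 106 (without *rict-1* replicate 1). Without *rict-1* replicate 3, the library with the most ribosomal RNA of the 6, it was 90.

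Several transcripts of the response to intestinal infection fell in the double mutant. The *irg* (infection response gene) list, with *sysm-1* and *C17H12.8*, had 10 members tested: 4 fell (1.06% of all genes tested did), none rose, and all 10 had a lower mean in *rict-1; fbxl-5*. Its median log2 fold change was −0.91, against 0.01 over all genes tested. The list was chosen with earlier results of these data known, and *sysm-1* and *C17H12.8*, both among the genes that fell, were added by name. Its share of falls is therefore no independent test. The summed level of 7 intestinal markers was also lower in the double mutant (135825 to 148545 normalized counts, against 181373 to 214972 in *rict-1*). Their median log2 difference was −0.08 and 1 of the 7 was called, so the sum does not stand for the typical marker. The part of intestinal tissue in these changes was not tested. *irg-4*, *irg-5* and *C17H12.8* encode secreted proteins with a CUB-like domain, and *irg-4*, *irg-5* and *sysm-1* are known as readouts of the p38 MAP kinase PMK-1. *C17H12.8* (chromosome IV:6818703-6820575, WBcel235) had 733, 734 and 658 normalized counts in *rict-1; fbxl-5* libraries, against 8643, 11518 and 8126 in *rict-1* libraries. The groups stood 13.3-fold apart with no overlap (log2 fold change −3.72 ± 0.19 (SE), adjusted p = 8.8e-09). *irg-5* (V:13737010-13738474) had 54.5, 79.9 and 176 in the double mutant, against 2378, 2551 and 4412 in *rict-1*. That is a log2 fold change of −5.01 ± 0.39 (adjusted p = 3.06e-06), and replicate 3 was the highest library in each genotype. *sysm-1* (II:9082626-9083193) was at 153, 302 and 286 in *rict-1; fbxl-5*, against 2061, 2627 and 1950.5 in *rict-1* (log2 fold change −3.21 ± 0.38, adjusted p = 0.000176).

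*irg-4* (IV:12435833-12438236) was the least even of these genes. It had 37.2, 194 and 229.6 normalized counts in the double mutant, against 636, 914 and 1159 in *rict-1*, so the groups did not overlap but replicate 1 of *rict-1; fbxl-5* lay far below the other 2. Its log2 fold change was −2.87 ± 0.53 (adjusted p = 0.00614, and 0.000722 with the block in 18 libraries). In the 6 libraries alone it was not called (adjusted p = 0.133 without and 0.112 with the block). The *rict-1* libraries were the high ones among 4 genotypes. The *rict-1; fbxl-5* means of *irg-5*, *C17H12.8*, *sysm-1* and *irg-4* were 104, 709, 247 and 153 normalized counts. *fbxl-5* libraries averaged 84.5, 390.4, 70.9 and 63.8, against 404, 2301, 416 and 187 in wild-type.

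**Figure D1:**
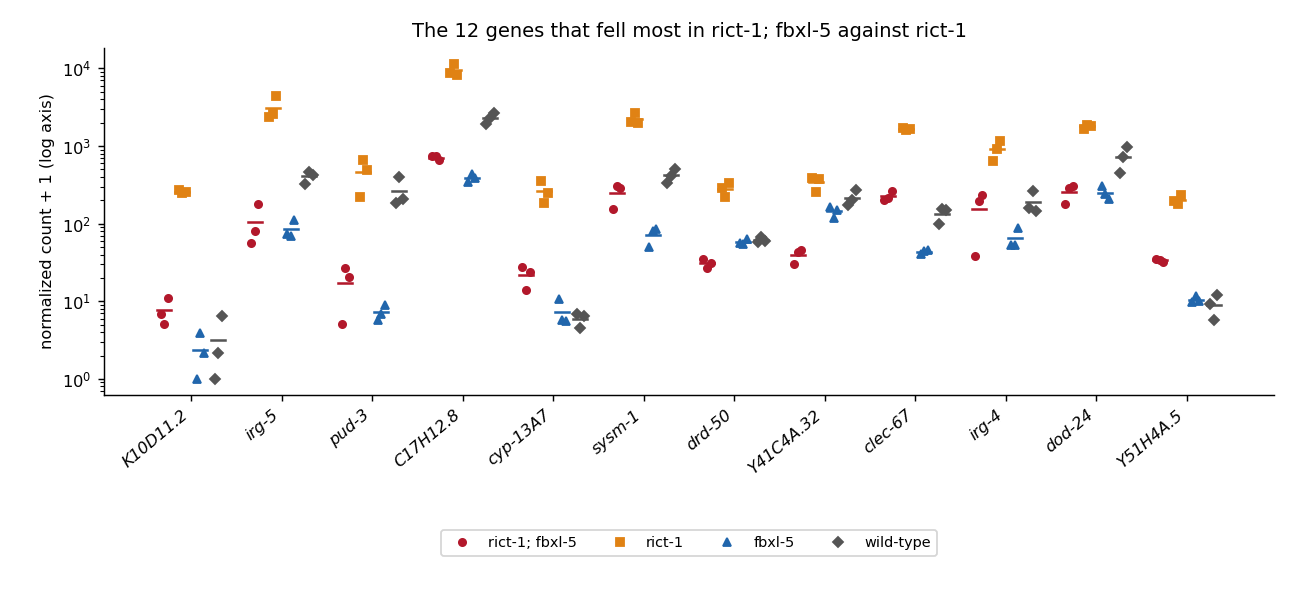
Normalized counts plus 1 (log axis) of the 12 abundant genes that fell most (called, and averaging 100 or more in the 6 libraries), with 1 point per library, a bar at the mean of each group, and 3 libraries each of *rict-1; fbxl-5*, *rict-1*, *fbxl-5* and wild-type. In each gene the 3 *rict-1; fbxl-5* libraries lie below the 3 *rict-1* libraries, as for *K10D11.2* with 4.03 to 10.1 against 247 to 269 normalized counts.

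Genes named for their place downstream of the FOXO factor DAF-16 showed a like pattern. Of 9 *dod* (downstream of DAF-16) genes tested, 3 fell and none rose, where 1.06% of all genes tested fell. *dod-24*, which encodes a CUB-like protein, had 178, 289.6 and 306 normalized counts in *rict-1; fbxl-5*, against 1660.5, 1883 and 1808 in *rict-1* (log2 fold change −2.83 ± 0.39, adjusted p = 0.000676). *dod-22*, also a CUB-like gene, had 0.826, 9.68 and 13.5 in the double mutant, against 166.1 ± 33.5 in *rict-1* (SD, n = 3). It fell by 4.65 on the log2 scale (adjusted p = 0.000142), and its double mutant values rest on few reads. *dod-3* fell by 1.25 (adjusted p = 0.000229). *K10D11.2*, which lies near *dod-22* (12965374-12967392) on chromosome IV (12978986-12981991), had few reads left. Its counts were 5.78, 4.03 and 10.1 in *rict-1; fbxl-5*, against 269, 247 and 257 in *rict-1*, a 38.8-fold difference in means (log2 fold change −5.16 ± 0.65, adjusted p = 0.000192).

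The *pud* genes, first described as encoding proteins more abundant in *daf-2* insulin receptor mutants, fell in the double mutant. The table holds 6 *pud* rows, of which the adjacent *pud-3* and *pud-4* on chromosome V (2324634-2325152 and 2326678-2327282) passed the count filter, and both fell. *pud-3* had 4.13, 25.8 and 19.4 normalized counts in *rict-1; fbxl-5*, against 219, 664 and 483 in *rict-1* (log2 fold change −4.88 ± 0.60, adjusted p = 0.000224). Replicate 1 of *rict-1* lay well below the other 2. In the 6 libraries without the block the same difference gave an adjusted p of 0.0116, and with the block 2.27e-10. *pud-4* had 2.48, 7.26 and 8.44 in the double mutant, against 56.8, 214 and 156 in *rict-1* (adjusted p = 0.000192). These genes also fell in *fbxl-5* against wild-type, with *pud-3* at 6.2 ± 1.63 normalized counts in *fbxl-5* and 261 ± 118 in wild-type (SD, n = 3 each; log2 fold change −5.12, adjusted p = 0.000184). As near-identical *pud* copies exist, reads may be shared among them.

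Other secreted defence proteins were called in both directions. Of 95 C-type lectin (*clec*) genes tested, which encode carbohydrate-binding proteins that include many infection-induced members, 11 fell (11.6%) and 2 rose, while 82 were not called. Over all genes tested 1.06% fell and 0.327% rose. The list's median log2 fold change was −0.21. *clec-67* had 199.8, 212 and 261 normalized counts in *rict-1; fbxl-5*, against 1687, 1612 and 1662 in *rict-1*, with tight replicates in each group (log2 fold change −2.89 ± 0.22, adjusted p = 8.02e-07). *clec-85* had 1302 ± 56.4 in the double mutant and 5004 ± 464 in *rict-1* (SD, n = 3 each; adjusted p = 0.000746), and *clec-65* 3835 ± 191 and 11086 ± 381 (adjusted p = 0.000841). *clec-70* went the other way. It had 38.8, 44.4 and 63.3 normalized counts in *rict-1; fbxl-5*, against 3.50, 5.45 and 4.31 in *rict-1* (log2 fold change 3.19, adjusted p = 0.00442), and it was listed at 0 in the 3 wild-type libraries. Its call was lost when any 1 of the 6 libraries was left out, with adjusted p up to 0.0322 (without *rict-1; fbxl-5* replicate 3). With the block in the 6 libraries, 33 of the 95 *clec* genes fell and 14 rose, where 6.29% of all genes tested fell and 3.77% rose.

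Lysozymes, which cut bacterial cell walls, were divided in the same manner. Of 12 tested, 2 fell and 1 rose (1.06% and 0.327% of all genes tested did). *lys-2* had 2006, 1968 and 2021 normalized counts in *rict-1; fbxl-5*, against 10372, 12000.1 and 9935 in *rict-1* (log2 fold change −2.42 ± 0.23, adjusted p = 2.09e-05). This was among the most even changes, with little spread among the 3 double mutant libraries. *lys-8* fell 2.47-fold (adjusted p = 0.000907). The invertebrate-type lysozyme gene *ilys-5* rose, with 3615, 6997 and 4656 in the double mutant, against 1423, 2738 and 1777 in *rict-1*, and replicate 2 was the highest library of each genotype. Its adjusted p was 0.00913 without the block and 0.000865 with it in 18 libraries. Without the block it was 0.0344 in the 6 libraries alone, and up to 0.0562 (without *rict-1* replicate 1) when a library was left out. Of 13 epidermal antimicrobial peptide genes tested, the adjacent caenacin genes *cnc-2* and *cnc-4* fell (log2 fold changes −2.29 and −2.17), where 1.06% of all genes did. *cnc-2* was at 5.78, 4.03 and 10.97 normalized counts in *rict-1; fbxl-5* against 39.3, 31.1 and 36.2 in *rict-1*. When a library was left out, *cnc-2* kept its call in 1 of the 6 fits and *cnc-4* in 3 (adjusted p up to 0.0421 and 0.0195).

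Genes of detoxification and metal stress fell and did not rise among those called in 18 libraries without the block, a fit in which 1.06% of all genes tested fell. Cytochrome P450 enzymes oxidize lipids and foreign compounds, and 4 of 58 tested fell (6.90%). *cyp-13A7* (II:9803620-9805513) had 26.4, 12.9 and 22.8 normalized counts in *rict-1; fbxl-5*, against 359, 186 and 245 in *rict-1* (log2 fold change −3.61 ± 0.63, adjusted p = 0.00308). It was at 9.64, 4.82 and 4.57 in *fbxl-5* and at 5.85, 3.51 and 5.45 in wild-type, so *rict-1* stood apart from the other 3 genotypes. *cyp-13A2*, *cyp-33E2* and *cyp-43A1* fell by 1.39, 1.29 and 0.84 on the log2 scale. Of 54 UDP-glucuronosyltransferases, which attach a sugar to such compounds, 3 fell (*ugt-2*, *ugt-62* and *ugt-64*, with log2 fold changes of −0.71, −1.03 and −0.85), and *ugt-62* was not called with the block in 18 libraries (adjusted p = 0.0182) or without any 1 of the 6 libraries (up to 0.061). Of 31 glutathione S-transferases, 1 fell (3.23%), which was *gst-39*, by 0.89. The calls of *ugt-2* and *gst-39* held in 1 of the 6 fits that left out a library and that of *cyp-13A2* in 4 (adjusted p up to 0.0216, 0.0275 and 0.011). In the oxidative and metal stress list 3 of 14 genes fell: the neighbouring cadmium-responsive genes *cdr-4* and *cdr-2*, and the catalase gene *ctl-2*. *cdr-4* had 599, 619.6 and 724 normalized counts in the double mutant, against 2622, 2129 and 2289 in *rict-1* (log2 fold change −1.86 ± 0.13, adjusted p = 2.84e-07). No heat shock gene of 18 was called. With the block in the 6 libraries, 15 of the 58 cytochrome P450 genes fell and 6 rose. Of the 54 UDP-glucuronosyltransferases 17 fell and 4 rose there, where 6.29% of all genes tested fell and 3.77% rose.

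Single genes were called in several lists of lipid and sugar metabolism. Of 14 desaturase and elongase genes 1 fell, as did 1 of 55 for fatty acid activation and oxidation. Of 12 lipase and lipid droplet genes 1 fell, and of 9 lipid-binding genes 1 rose. Of 12 inositol, glycerol and trehalose genes 1 fell, and none of 14 methionine cycle and phosphatidylcholine genes was called. Over all genes tested 1.06% fell and 0.327% rose. The Δ9 desaturase gene *fat-5* fell, with 326, 303 and 447 normalized counts in *rict-1; fbxl-5*, against 1069, 1037 and 1311 in *rict-1* (log2 fold change −1.68 ± 0.22, adjusted p = 0.000306). The lysosomal lipase-like gene *lipl-5* fell by 1.08 (4137 ± 454 in the double mutant and 8731 ± 199 in *rict-1*, SD, n = 3 each; adjusted p = 0.000153). *cpt-3*, of the carnitine palmitoyltransferase family, fell at very low counts of 4.95, 2.42 and 1.69, against 17.5, 14.8 and 17.2. *lbp-7*, of the intracellular lipid-binding protein family, rose by 0.86 (278, 363 and 403 in *rict-1; fbxl-5*, against 186, 191 and 191 in *rict-1*; adjusted p = 0.00487). The trehalose synthase gene *tps-2* fell by 0.46 (adjusted p = 0.00922). Among 18 lysosomal and digestive proteases *asp-14* and *cpr-1* fell (log2 fold changes −1.56 and −0.77), where 1.06% of all genes tested fell. The calls of *lbp-7*, *tps-2* and *asp-14* each held in 1 of the 6 fits that left out a library and that of *cpr-1* in 3 (adjusted p up to 0.0376, 0.0601, 0.0297 and 0.0162).

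The other 3 of the 12 largest falls among genes averaging 100 or more do not belong to the lists. *drd-50* had 33.9, 25.8 and 30.4 normalized counts in *rict-1; fbxl-5*, against 289, 222 and 335 in *rict-1* (log2 fold change −3.18 ± 0.20, adjusted p = 1.24e-07). *Y41C4A.32* had 28.9, 41.9 and 44.7, against 387, 257 and 370.3 (log2 fold change −3.10, adjusted p = 9.34e-06). *Y51H4A.5* had 33.9, 33.1 and 31.2, against 198, 177 and 231 (log2 fold change −2.58, adjusted p = 1.95e-05). For each the groups were far apart, and the calls held when any 1 of the 6 libraries was left out.

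The gene that rose most was *B0024.4* (V:10297399-10298985). It had 306, 596 and 435 normalized counts in *rict-1; fbxl-5*, against 7.87, 6.23 and 7.75 in *rict-1*, 61.2-fold apart (log2 fold change 5.71 ± 0.46, adjusted p = 3.06e-06). It was at 26.5, 41.4 and 17.1 in *fbxl-5* libraries and 63.2, 65.6 and 59.1 in wild-type libraries, so the double mutant was the highest of these genotypes and *rict-1* the lowest. Among genes averaging 100 or more in the 6 libraries the next rises were smaller. *F42A10.7* had 213, 378 and 262 in the double mutant, against 33.2, 75.5 and 61.1 in *rict-1* (log2 fold change 2.34 ± 0.31, adjusted p = 0.000274). *T19C9.8* had 522, 489 and 534, against 139.9, 163 and 159 (log2 fold change 1.74, adjusted p = 0.00285), and *C50B6.7* had 254, 347 and 319, against 64.7, 114 and 109 (log2 fold change 1.70, adjusted p = 0.00317).

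*col-135*, a cuticle collagen gene, had 389, 659 and 403 normalized counts in *rict-1; fbxl-5*, against 191, 155 and 173 in *rict-1* (log2 fold change 1.44 ± 0.16, adjusted p = 6.0e-05). In *fbxl-5* and wild-type it averaged 507 and 531. *clec-218*, a C-type lectin gene, rose, with 130.5, 166 and 192, against 63.0, 71.6 and 63.7 (log2 fold change 1.27, adjusted p = 0.0017). *W04A4.2*, *K05F1.10* and *cnp-2* rose by 1.33, 1.14 and 1.08 on the log2 scale, *Y47H10A.5* by 1.52, and the pseudogene WBGene00014954 by 1.53. Of the 24 genes with the largest changes in each direction among those averaging 100 or more (12 rises and 12 falls), 16 were called without any 1 of the 6 libraries. The call of *irg-4* was lost without *rict-1* replicate 1, 2 or 3 (adjusted p up to 0.0363), and those of *cyp-13A7*, *T19C9.8* and *Y47H10A.5* without any 1 of the 6 libraries (up to 0.0232, 0.0182 and 0.0155). *C50B6.7*, WBGene00014954, *ilys-5* and *clec-218* each kept the call in 2 of these 6 fits (adjusted p up to 0.0234, 0.018, 0.0562 and 0.0141).

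**Figure D2:**
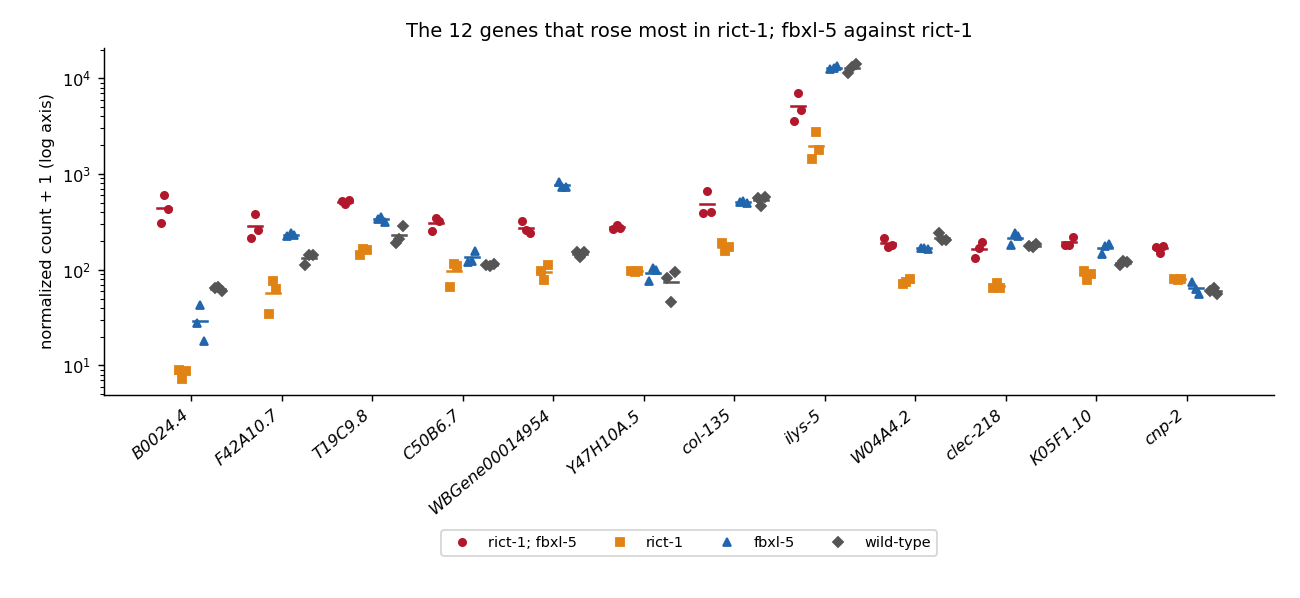
Normalized counts plus 1 (log axis) of the 12 abundant genes that rose most (called, and averaging 100 or more in the 6 libraries), with 1 point per library, a bar at the mean of each group, and 3 libraries each of *rict-1; fbxl-5*, *rict-1*, *fbxl-5* and wild-type. The *rict-1; fbxl-5* libraries lie above the *rict-1* libraries in each gene, by 61.2-fold in the means for *B0024.4* and 2.13-fold for *cnp-2*.

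The pair of strains bears on whether the loss of *fbxl-5* raises yolk gene transcripts in *rict-1* mutants. None of the 6 vitellogenin genes was called at an FDR of 0.01, with 3 at an unadjusted p under 0.05, and the 2 with the largest differences, *vit-3* and *vit-4*, were also the 2 lowest in *rict-1*. *vit-3* (X:3567355-3572549) had 2427, 3322 and 2049 normalized counts in *rict-1; fbxl-5*, against 1019.5, 1495 and 1003 in *rict-1*. The groups did not overlap and their means differed 2.22-fold (log2 difference 1.14 ± 0.28 (SE), adjusted p = 0.0322). *vit-4* (X:3558769-3563965) had 11853, 14279.9 and 10096 in the double mutant, against 4831, 6459 and 4728 in *rict-1* (2.26-fold, log2 difference 1.18 ± 0.27, adjusted p = 0.0225). In each genotype replicate 2 was the highest library for both genes. The log2 differences of the 3 pairs were 1.25, 1.15 and 1.03 for *vit-3* and 1.29, 1.14 and 1.09 for *vit-4*.

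The vitellogenin result turned on the fit. With the block in 18 libraries *vit-3* and *vit-4* had adjusted p of 0.0291 and 0.030, and no *vit* gene was called. In the 6 libraries alone both were called, with adjusted p of 0.00749 and 0.00187 without the block (118 genes, or 0.876% of those tested, rose there). With the block in the 6 libraries they were 5.67e-08 and 2.21e-07, and *vit-1* was also called (0.00303), where 508 genes (3.77%) rose. DESeq2 on the recovered reads of 18 libraries likewise called *vit-3* and *vit-4*. The remaining members were not called by limma in 18 libraries, and *vit-5* was called in 1 of 29 alternative settings. *vit-5* had 281476, 275742 and 257167 in *rict-1; fbxl-5*, against 184041, 219451 and 197676 in *rict-1* (log2 difference 0.44, adjusted p = 0.366), which did not overlap. *vit-1* had 11783, 12963 and 9919, against 7622, 9992 and 7915 (0.44, adjusted p = 0.468). *vit-2* and *vit-6* were within their spread, at 811356 ± 58949 in the double mutant and 849518 ± 45556 in *rict-1* for *vit-2*, and 1081823 ± 102214 and 1069056 ± 58045 for *vit-6* (SD, n = 3 each).

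In the double mutant *vit-3* and *vit-4* stayed below every library with intact *rict-1* among *fbxl-5* and wild-type. *vit-3* had 52021, 59508 and 65400.4 normalized counts in *fbxl-5* libraries and 72375, 84502 and 87278 in wild-type libraries, so its wild-type mean was 31.3 times that of *rict-1; fbxl-5* and 69.4 times that of *rict-1*. For *vit-4* the wild-type mean was 5.04 and 11.4 times those of the 2 groups. The *fbxl-5* effect on *vit-3* was higher in *rict-1* than in wild-type by 1.61 on the log2 scale (adjusted p = 0.0326), and that on *vit-4* by 1.43 (adjusted p = 0.0488), neither called at an FDR of 0.01. The *vit-3* and *vit-4* genes, and *vit-5*, are close in sequence and may share reads. Of 14 further genes of yolk regulation and uptake, none was called.

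**Figure D3:**
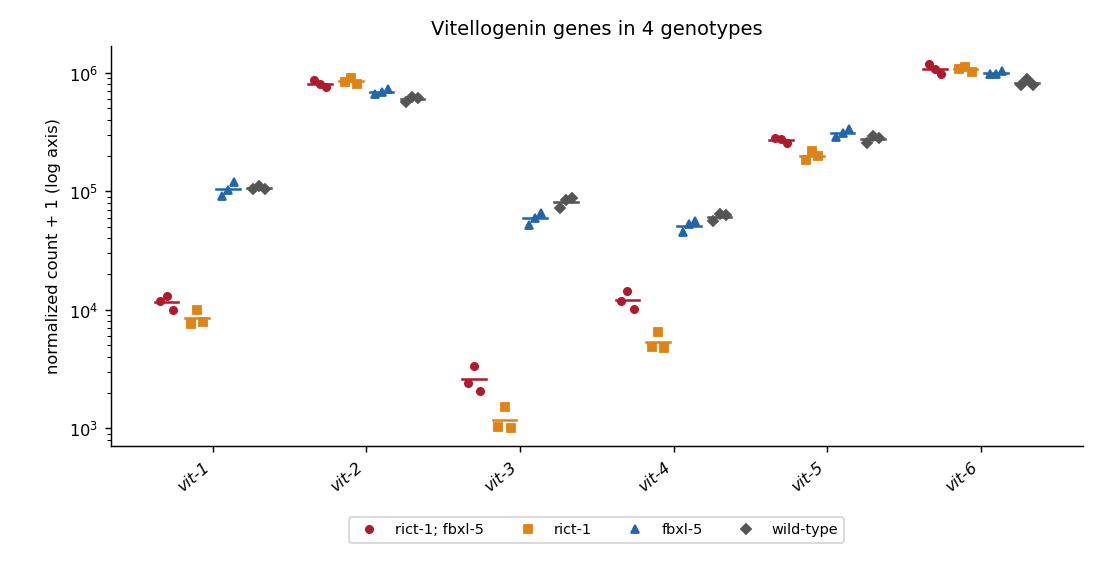
Normalized counts plus 1 (log axis) of *vit-1* to *vit-6* in the 3 libraries each of *rict-1; fbxl-5*, *rict-1*, *fbxl-5* and wild-type, with a bar at each mean. For *vit-3* and *vit-4* the *rict-1; fbxl-5* points lie above the *rict-1* points and below all *fbxl-5* and wild-type points, while *vit-2* and *vit-6* overlap between *rict-1; fbxl-5* and *rict-1*.

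Of the 15 genes called with the block in 18 libraries and not without it, 6 averaged 100 or more and had no overlap. *fat-7*, a Δ9 desaturase gene, had 337, 552 and 638 normalized counts in *rict-1; fbxl-5*, against 144, 325 and 266 in *rict-1*, where replicate 1 was the lowest library of each group. Its log2 fold change of 1.08 had an SE of 0.26 without the block (adjusted p = 0.0316) and 0.15 with it (adjusted p = 0.00081). *sams-1*, which encodes S-adenosylmethionine synthetase, had 3517, 4539 and 4203, against 2274, 3354 and 2481 (log2 fold change 0.61, adjusted p = 0.0166 without and 0.00276 with the block). The TBC-domain gene *tbc-1* and *T19D12.6* rose by 0.45 and 0.48 with the block. The purine nucleoside phosphorylase gene *pnp-1* fell, with 1822, 1168 and 1416 in the double mutant, against 2437, 1989 and 2209 in *rict-1* (log2 fold change −0.61, adjusted p = 0.0173 without and 0.00295 with the block), and *tdpo-1* fell by 0.66. Both *fat-7* and *sams-1* remained below *fbxl-5* (means 1261 and 5525) and wild-type (2767 and 5987) in the double mutant (509 and 4086).

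**Figure D4:**
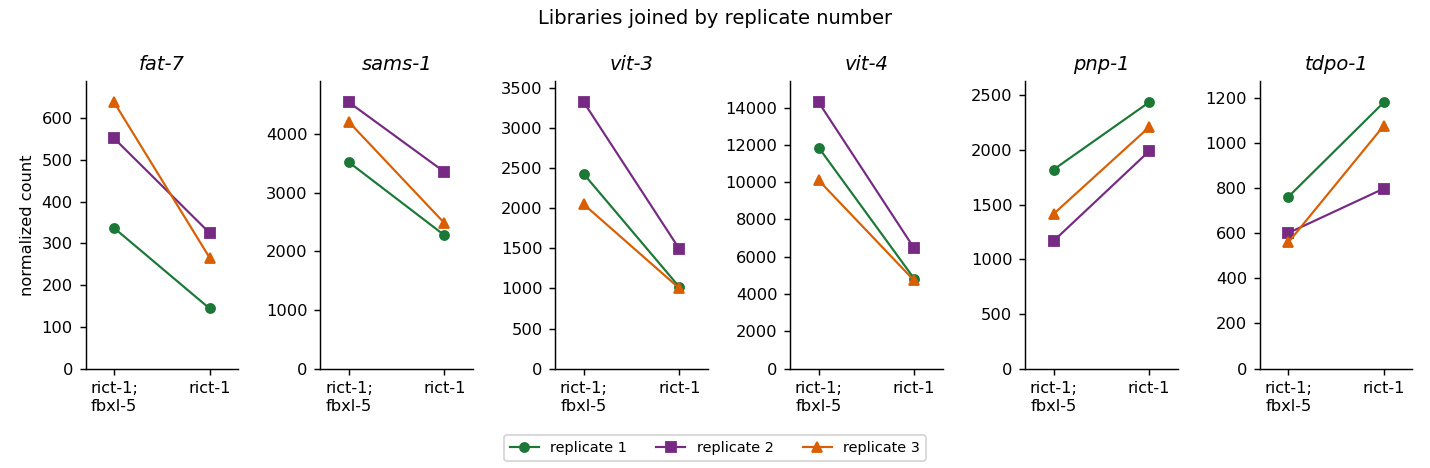
Normalized counts of *fat-7*, *sams-1*, *vit-3*, *vit-4*, *pnp-1* and *tdpo-1* (axes from 0) in *rict-1; fbxl-5* (left of each panel) and *rict-1* (right), with a line joining libraries of the same replicate number. All 3 lines of a panel run the same way, and for *vit-3* replicate 2 is the highest library on both sides, with 3322 in *rict-1; fbxl-5* and 1495 in *rict-1*.

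Sperm genes and collagens also differed in their calls between fits. Hermaphrodites make sperm before they switch to oocytes, and the sperm list holds major sperm protein genes and others expressed in the male germline. All 33 members tested had a higher mean in *rict-1; fbxl-5* (median log2 difference 1.61), and 30 lay wholly above *rict-1* (8.75% of all genes tested did). None was called in 18 libraries with limma, with or without the block (32 had an unadjusted p under 0.05 without it). In the 6 libraries alone 7 rose without the block (0.876% of all genes did) and 30 with it (3.77% did). Their summed normalized counts were 1414.5, 1091 and 2204 in the double mutant, against 507, 459 and 696 in *rict-1*. They were 769.5, 1000.02 and 727 in *fbxl-5*, against 592, 368 and 479 in wild-type. Of 131 cuticle collagen genes, *col-135* rose and *col-76* fell (adjusted p = 0.00441, lost without any 1 of the 6 libraries, up to 0.0281). Over all genes tested 0.327% rose and 1.06% fell. With the block in 18 libraries 8 collagen genes rose and 1 fell (0.371% of all genes rose in that fit). The genes it added were uneven among double mutant libraries, as for *col-73* (127 ± 94.2 normalized counts, SD, n = 3). With the block in the 6 libraries 30 rose and 17 fell (3.77% and 6.29% of all genes did). The list's median log2 difference was 0.36, but 17 members lay wholly above *rict-1* and 23 wholly below (8.75% and 13.2% of all genes did). Summed collagen counts were 227993, 233602 and 246277 in the double mutant, against 275736, 384950 and 279553 in *rict-1*.

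Among genes of the pathways to which FBXL-5 and RICT-1 belong, 2 of 28 cullin, SKP1-related and other SCF core genes were called, against 1.39% of all genes tested: *cul-5* rose and *skr-4* fell. *cul-5*, a cullin gene, had 1747, 1624 and 1766 normalized counts in *rict-1; fbxl-5*, against 1089, 1026 and 1392 in *rict-1* (log2 fold change 0.56 ± 0.10, adjusted p = 0.00487). *skr-4*, a SKP1-related gene, had 443, 485 and 401, against 778, 865 and 797 (log2 fold change −0.88 ± 0.14, adjusted p = 0.00161). Of 93 F-box A genes *fbxa-14* fell by 1.13 (1.08% of the list, against 1.06% of all genes). In this list 70 had a lower mean in the double mutant, 26 lay wholly below *rict-1* (13.2% of all genes did), and 22 had an unadjusted p under 0.05 (1694 of all 13472 did). With the block in the 6 libraries 14 of the 93 fell, against 6.29% of all genes. When a library was left out, *cul-5* and *fbxa-14* each kept the call in 1 of the 6 fits and *skr-4* in 4 (adjusted p up to 0.0326, 0.0209 and 0.0134). None of 110 F-box B and C genes was called, and none had an unadjusted p under 0.05, although 91 had a lower mean in the double mutant (median −0.28). None of 21 mTOR and insulin signalling genes was called. *sgk-1*, the kinase that acts downstream of mTORC2, had 694, 656 and 575 normalized counts in the double mutant, against 790.4, 855 and 745 in *rict-1* (log2 difference −0.31 ± 0.11, adjusted p = 0.164 and, with the block in 6 libraries, 0.0082).

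Among 100 neuropeptide and insulin-like peptide genes the insulin-like gene *ins-35* fell (1% of the list, against 1.06% of all genes tested). The 2 that rose were *ins-22* and *nlp-51*, where 0.327% of all genes tested rose. *ins-35* had 13.2, 12.1 and 8.44 normalized counts in *rict-1; fbxl-5*, against 85.7, 85.6 and 70.6 in *rict-1* (log2 fold change −2.75 ± 0.36, adjusted p = 0.000264). *nlp-51* had 33.9, 53.2 and 52.3, against 16.6, 14.8 and 15.5 (log2 fold change 1.49, adjusted p = 0.00057), and *ins-22* averaged 27.5 ± 2.16 in the double mutant and 8.78 ± 3.18 in *rict-1* (SD, n = 3 each), a call that held in 1 of the 6 fits that left out a library (adjusted p up to 0.0297). None of 77 cytosolic or 69 mitochondrial ribosomal protein genes, 33 proteasome genes, 20 proton pump genes, 23 histone genes, 54 hedgehog-related genes and 166 nuclear hormone receptor genes was called, and their medians lay between −0.10 and 0.04.

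The *fbxl-5* effect in *rict-1* was then set against the effect of the same mutation in wild-type, with which it shares no library. The difference of the 2 effects was called for 115 genes (0.854% of those tested, and 122 with the block in 18 libraries). In 85 the effect was higher in the *rict-1* background and in 30 lower. Of the 85, 69 had fallen in *fbxl-5* against wild-type, 65 of them with no call in the *rict-1* background, and 84 had a higher mean in *rict-1; fbxl-5* than in *rict-1*. The 30 included 19 that fell in the *rict-1* background. Among all 115, 28 were called in the *rict-1* background alone, 74 in the wild-type background alone, 7 in both (6 of them in opposite directions) and 6 in neither. In *fbxl-5* replicate 3 ribosomal RNA genes held 29.97% of reads, and 77 genes were called for the difference without it. Leaving out other libraries of the 4 genotypes gave between 55 (without *rict-1* replicate 3) and 89 (without *rict-1* replicate 2).

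The 6 abundant genes with the largest difference were all higher in the *rict-1* background. *B0024.4* led them (difference 6.91, adjusted p = 5.6e-05). *srlf-30* had 65.2, 43.6 and 38.8 normalized counts in *rict-1; fbxl-5*, against 13.99, 9.34 and 3.44 in *rict-1* (log2 fold change 2.47, adjusted p = 0.00324, called in 1 of the 6 fits that left out a library, up to 0.0226). In *fbxl-5* it had 72.3, 58.8 and 56.0, against 248, 293 and 312 in wild-type (log2 fold change −2.17, adjusted p = 0.00631), so the 2 effects ran in opposite directions. *lips-15*, *far-8*, *phat-8* and *spig-1* fell in *fbxl-5* against wild-type (log2 fold changes −2.67, −2.91, −2.44 and −2.10). None of these 4 was called in the *rict-1* background, where their log2 differences were 1.29, 1.03, 1.22 and 1.22. *far-8* (fatty acid and retinol binding) had 410.4, 290.4 and 569.8 normalized counts in *rict-1; fbxl-5*, against 247, 213 and 152 in *rict-1*. It had 157, 141.6 and 242 in *fbxl-5*, against 1188, 1366 and 1436 in wild-type, where it stood highest. The summed level of 4 pharyngeal markers (*myo-1*, *myo-2*, *tnc-2* and *mlc-3*) was 4387 to 5823 in *rict-1; fbxl-5*, against 3818 to 4633 in *rict-1*, and 3735 to 4513 in *fbxl-5*, against 5364 to 6698 in wild-type. The median log2 difference of the tested pharyngeal markers was 0.47 in the *rict-1* background and −1.62 in *fbxl-5* against wild-type. The part of the pharynx in these differences was not tested.

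On the other side, *K10D11.2*, *drd-50*, *Y51H4A.5* and *Y41C4A.32* fell in the *rict-1* background (differences of effects −4.91, −3.08, −2.88 and −2.53). None was called in *fbxl-5* against wild-type, where their log2 differences were −0.25, −0.10, 0.30 and −0.57. In wild-type *K10D11.2* was at 0 to 5.45 normalized counts and *Y51H4A.5* at 4.68 to 10.9, so both had little room to fall there. *drd-50* had 54.6, 53.0 and 61.7 in *fbxl-5*, against 57.3, 65.6 and 58.1 in wild-type, which overlap. *fat-7* ran opposite ways, as it was at 1153, 1169.6 and 1461 in *fbxl-5* libraries, against 2188, 3345 and 2768 in wild-type libraries (log2 difference −1.12, adjusted p = 0.0168; difference of effects 2.20, adjusted p = 0.00432).

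**Figure D5:**
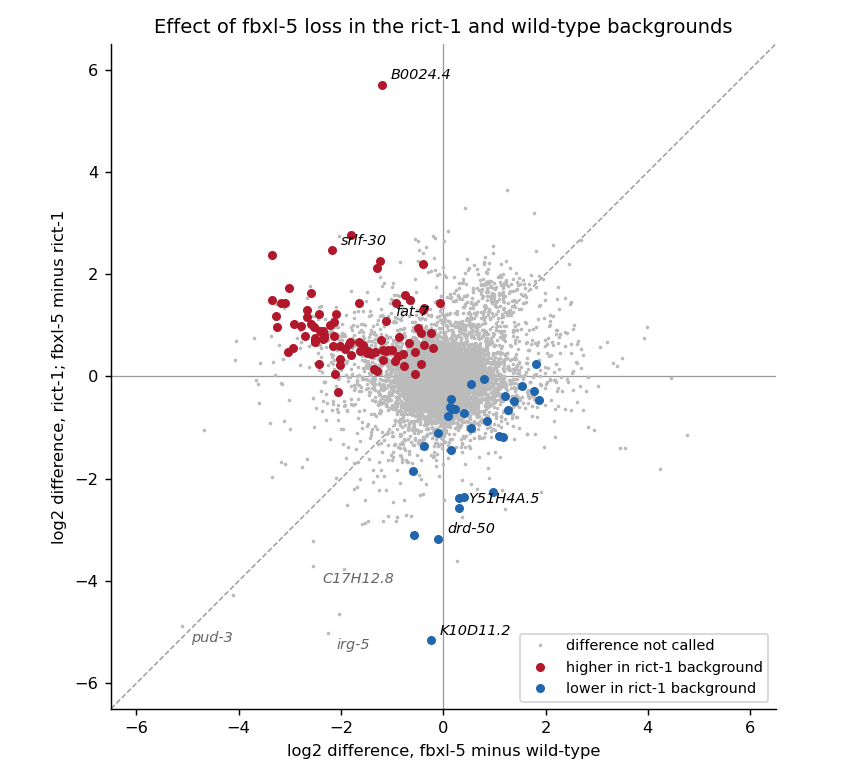
Log2 difference of *rict-1; fbxl-5* minus *rict-1* (vertical axis) against that of *fbxl-5* minus wild-type (horizontal axis) for the 13472 genes tested, where points on the dashed line changed equally. Red points (85) had a higher and blue points (30) a lower effect in the *rict-1* background at an FDR of 0.01, and *pud-3* lies near the dashed line at −4.88 and −5.12.

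Part of the genes that fell also fell in the other backgrounds. Of the 143, 22 (15.4%) were among the 266 that fell in *fbxl-5* against wild-type (1.97% of genes tested), which is 8.27% of those 266. In the *lin-29* background 93 of the 143 (65.0%) were among the 606 that fell in *lin-29; fbxl-5* against *lin-29* (4.5% of genes tested), which is 15.3% of the 606, and 17 fell in all 3 backgrounds. The 3 comparisons share no library but do share the estimate of the spread. *C17H12.8* fell by 3.72 in *rict-1*, 2.55 in wild-type and 3.56 in *lin-29* on the log2 scale, and *clec-67* by 2.89, 1.59 and 2.90. Of the rises, 2 of the 44 (4.55%) were among the 79 that rose in *fbxl-5* against wild-type (0.586% of genes tested; 2.53% of the 79), and 4 were among those that fell.

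Called genes were spread over all 6 nuclear chromosomes, with 61 (32.6%) on chromosome V, which holds 19.2% of genes tested, and 15 (8.02%) on chromosome I, which holds 16.2%. The 2 strains differ at *fbxl-5* (V:7742909-7751369), and within 1 Mb of it 2 of 275 genes were called (0.727%). Of the 143 that fell, 25 had another gene that fell starting within 20 kb. Among the 711 tested genes in these windows 3.52% had fallen, against 1.06% of all. Such neighbours include *pud-3* and *pud-4*, *cdr-2* and *cdr-4*, and *cnc-2* and *cnc-4*, which are related genes whose reads may be shared in part. Of the 187, 184 are annotated as protein coding and 3 as pseudogenes.

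None of 6 hypodermal, 5 muscle, 4 pharyngeal, 6 neuronal, 6 germline, 6 oocyte and 6 embryonic markers tested was called. Of 7 intestinal markers *ges-1*, a gut esterase gene, fell by 0.95 (adjusted p = 0.00116). The 4 sperm markers tested had a median log2 difference of 1.46, and sums over all sperm markers of 128 to 283 in the double mutant, against 50.6 to 83.5 in *rict-1*. Markers of molting larvae had a median log2 difference of −0.66 and sums of 2265 to 3548, against 3246 to 4313. No marker was at 0 in all libraries. The part of these tissues or of stage in the gene changes above was not tested.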

How the data were processed

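PolyA RNA of whole animals was made into libraries with the TruSeq RNA v2 kit, which does not keep strand, and sequenced as 50 bp single-end reads. Per the submitters' notes reads were processed with STAR, featureCounts (Subread) and DESeq2. The authors deposited 1 table whose values are a signal unit, read counts divided by DESeq2 size factors. The smallest positive value of each library was taken as 1 read, and dividing by it gave whole reads for 100% of values (tolerance 1e-06). Size factors estimated anew from these reads differed from those so implied by a relative 2.2e-15 at most. The 7 deposited comparison tables hold the authors' own fold changes and p-values and were not used.

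Log2(normalized count + 1) of 13472 genes was fitted with limma 3.58.1 (trend, robust) in R 4.3.3, with a mean per genotype over 18 libraries. Calls used a Benjamini-Hochberg FDR of 0.01 over all genes tested. Fold changes are on this scale and understate those of low genes. An exact permutation test of 3 against 3 libraries cannot go below 0.1 and was not used. Alternatives were the replicate block, the 6 or 12 libraries alone, edgeR 4.0.16 and DESeq2 1.42.0 on the recovered reads, other normalization, pseudocounts, filters and FDR, and leaving out libraries. The fits were tested on simulated data.

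The labels give the same replicate numbers to each genotype and do not say what a number shares. The correlation of deviations was over 0.1 in each of the 3 same-numbered pairs (0.65, 0.39 and 0.24). The replicate block therefore took the numbers as pairs, which rests on the values. It was set for the *rict-1; fbxl-5* and *rict-1* libraries only, and the other genotypes had no block term. Unless the block is named, calls come from fits without it. Genes named are *fbxl-5*, *rict-1*, *sgk-1* and the *vit* genes, the 12 largest rises and 12 largest falls among called genes averaging 100 or more without overlap, up to 5 each way called only with the block, the 6 with the largest difference between backgrounds, and called members of gene lists (the 4 largest where more than 6 were called). Lists and members were chosen with earlier results of these data known. Symbols matched 92.7% of IDs. Positions are from the WBcel235 annotation. The intestinal marker *opt-2* was not matched.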

Additional observations from a re-analysis of the deposited data

Results flagged for a closer look

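The *fbxl-5* effect differed between the *rict-1* and wild-type backgrounds for 115 genes by limma's test of the difference (2347 at an unadjusted p under 0.05). Among the genes named in the text, the effect in *rict-1* minus that in wild-type, on the log2 scale, was 6.91 for *B0024.4*, 4.64 for *srlf-30*, 3.96 for *lips-15*, 3.94 for *far-8*, 3.66 for *phat-8* and 3.33 for *spig-1*. It was 2.34 for *ins-22*, 2.20 for *fat-7*, 2.13 for *nlp-51*, 1.70 for *W04A4.2*, 1.501 for *col-135*, 1.299 for *lbp-7*, 1.03 for *T19D12.6* and 0.76 for *cul-5*. The effect was lower in *rict-1* by a difference of −4.91 for *K10D11.2*, −3.08 for *drd-50*, −2.88 for *Y51H4A.5*, −2.53 for *Y41C4A.32*, −1.58 for *cdr-2* and −1.25 for *cdr-4*.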

How the results depend on the processing

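Counts are given for *rict-1; fbxl-5* against *rict-1*, for the difference between backgrounds, and for *fbxl-5* against wild-type, in that order, against 187, 115 and 345 as reported. An FDR of 0.05 gave 432, 495 and 1124, and 12 libraries without the *lin-29* genotypes gave 688, 819 and 1374. DESeq2 gave 482, 458 and 840, and with the replicate block 456, 504 and 869, an alternative chosen after seeing the data. The replicate block gave 169, 122 and 348 in 18 libraries. As it was set for the *rict-1; fbxl-5* and *rict-1* libraries only, the count for *fbxl-5* against wild-type moved only through the shared estimate of the spread. In the 6 libraries alone the first count was 427 without and 1355 with the block. With the block and a same-numbered pair left out, also chosen after seeing the data, the first count was 42, 45 and 52 and the second 33, 46 and 30 without replicates 1, 2 and 3. Leaving out 1 library of *rict-1; fbxl-5*, *rict-1*, *fbxl-5* or wild-type gave 87 to 179, 55 to 89 and 124 to 323. TMM, edgeR with and without the block, pseudocounts of 0.5 and 5, and filters of none and 50 stayed within 1.5 times. The share of calls that rose was 23.5% as reported, 37.5% with the block in 6 libraries, 35.0% in 12 libraries and 33.6% with DESeq2. The cause was not tested. No gene among the 187 changed sign under any of these settings whose calls were compared. Of the uncalled named genes, the log2 difference of *rict-1* ran between −0.0918 and 0.1645 when a library was left out and was −0.0487 with the block without replicate 2. That of *vit-6* ran between −0.0554 and 0.0805, with −0.0282 without *rict-1* replicate 3, and was −0.0483 with the block without replicate 1. Of 59 named called genes, 34 kept the call without any 1 of the 6 libraries. Depth limits the genes at few reads, such as *dod-22*, *cpt-3* and *K10D11.2* in the double mutant.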
